A study of Mus musculus with 24 samples.

Results

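RAS transformed SMB cells were compared with the parental cells of the same lines on 15 of the 24 Affymetrix arrays of the series. The comparison took the 7 arrays titled SMB(RAS) (3 of SMB21, 2 of SMB55 and 2 of SMB56) and the 8 parental arrays without growth factor or RAS (4 of SMB21, 2 of SMB55 and 2 of SMB56), and entered the line as a block. SMB21, SMB55 and SMB56 are mouse medulloblastoma cell lines that grew out of tumors arising spontaneously in Ptch+/- mice, and all carry the genotype label Ptch1 mutant and the age label Adult. Both groups share that genotype and were kept as floating neurospheres in DMEM/F12 medium with B27, without serum. The labels describe the RAS cells only as RAS transformed. The RAS gene, its allele, the vector and the number of clones are not given in the sources used here. The RAS arrays of a line may therefore come from 1 derivation, although the main test counts each array as a replicate. A further 3 arrays, 1 per line, hold parental cells grown for weeks with EGF and bFGF at 20 ng/mL each and heparin, and the remaining 6 hold normal cerebellum and primary tumors. The titles number the arrays of a group as biological replicates without saying how the cultures were separated, so p-values measure the spread between these arrays.

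Ptch1 is the receptor that holds the Hedgehog activator Smo in check. When Ptch1 is lost, Gli transcription factors switch on genes such as Gli1 and Mycn and keep granule neuron precursors of the cerebellum, which are marked by the transcription factor Atoh1, dividing. RAS proteins carry signals from growth factor receptors through RAF and MEK to the kinase ERK, which induces immediate early transcription factors of the AP-1, EGR and ETS families and, with them, its own inhibitors of the Dusp, Spry and Spred families. The comparison addressed how Hedgehog-driven tumor cells differ once RAS signalling has been added.

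Every value is log2(intensity + 16) of 1 probe set per gene, the one with the highest mean over all 24 arrays, and a difference of 1 is a 2-fold difference on that scale, which understates the change of dim genes. The median of all gene values was 8.35 and the lower quartile 6.14, and values below the lower quartile are called dim here. The arrays of the comparison had similar median intensities, 216 to 241 in parental and 223 to 245 in RAS arrays. In SMB55 and SMB56 parental replicate 1 had medians of 224 and 222 and parental replicate 2 of 235 and 241, next to 241 to 245 in their RAS arrays. Parental replicate 2 of SMB55 and of SMB56 stood apart from the other 6 parental arrays on the first principal component (-12.4 and -10.4 against -52.4 to -38.8), towards the RAS arrays (15.6 to 74.2), and values without these arrays are given where they ended a named gene's call or moved a list's count by over 1.5 times. The granule precursor markers Atoh1 and Zic1 were high in the 8 parental arrays, at 11.79 to 12.97 and 13.27 to 13.68. The 23 granule precursor genes measured averaged 9.07 to 9.94 in these arrays. The averages were 7.49 to 8.39 for 14 astrocyte genes and 6.40 to 9.73 for 11 oligodendrocyte genes. The lineage of the cells was not tested. The introduced RAS itself was not analysed here. Nras, a RAS gene, spanned 11.30 to 12.36 in parental and 10.50 to 11.93 in RAS arrays and did not pass the test (-0.38, adjusted p = 0.116). It passed without SMB56 parental replicate 2 (-0.48, adjusted p = 0.0427) and without SMB56 RAS replicate 2 (-0.48, adjusted p = 0.0458). Other probe sets of Nras differed in sign, at -0.28 and 0.38, and did not pass.

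RAS transformed cells differed from parental cells in 4074 of 12394 genes (32.9%), 1814 higher (14.6%) and 2260 lower (18.2%), at an adjusted p under 0.05 in limma with Benjamini-Hochberg adjustment over all genes. The lines shared 1784 of these changes, which is 14.4% of all genes tested. In 831 genes (6.70% of all genes) every RAS array lay above every parental array of its own line in all 3 lines. In 953 genes (7.69% of all genes) every RAS array lay below. Shared changes made up 45.8% of the 1814 rises and 42.2% of the 2260 falls. Rises were the larger changes: 361 shared genes were at least 2-fold higher in every line and 159 at least 2-fold lower. The median change of the shared genes was 1.28 in SMB21, 1.51 in SMB55 and 1.24 in SMB56 for genes that rose, and -0.74, -0.95 and -0.70 for genes that fell, against -0.05 over all genes. Without the 2 parental arrays that stood apart, 3702 genes changed and 2204 changes were shared. With fewer arrays the rule of no overlap is easier to meet, so the larger shared count does not measure closer agreement of the lines. The arrays of a line count as separate replicates in this test. With 1 mean per line and treatment, so that 3 lines were set against 3, 167 genes passed (1.35%; 101 higher and 66 lower), 156 of them among the shared changes; 36 of the 134 changed genes singled out by the naming rule were among the 167. The counts of rises and falls in each list below stand against these shares of all genes, 14.6% higher and 18.2% lower. On 1 mean per line few list members passed. They were 1 of 15 ERK feedback inhibitors, 1 of 25 annexins, S100 proteins and galectins, 1 of 31 adhesion genes and 1 of 22 TGF-beta genes. Granule neuron precursors had the most, 6 of 23. In the lists of ERK feedback inhibitors, annexins, matrix proteases, TGF-beta, glycolysis, microglia and endothelium below, no member fell in limma, at an unadjusted p under 0.05 either. The split between higher and lower depended on the scaling: 44.5% of the changed genes were higher on the deposited scale and 34.2% after each array was centred on its median.

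The RAS arrays lost the transcription factor that defines the granule neuron precursor. Atoh1 ran from 11.79 through a median of 12.56 to 12.97 in parental arrays and from 5.40 through 5.76 to 7.63 in RAS arrays. No RAS array came near a parental array, and most RAS arrays were dim. The fall of 6.43 ± 0.28 (SE), 85.9-fold on this scale, had an adjusted p of 3.43e-08 and was 6.71 in SMB21, 6.46 in SMB55 and 5.91 in SMB56. Of 23 granule precursor genes measured, 15 fell and 1 rose, against 18.2% and 14.6% of all genes, and 13 of the falls were shared by all lines (list median -1.59). Insm1, a zinc finger factor of neuroendocrine and neuronal progenitors, ran from 9.28 to 11.82 in parental and 5.29 to 6.50 in RAS arrays. Neurod1, a bHLH factor of granule neuron differentiation, fell by 4.25 ± 0.41, Barhl1, a homeobox factor of the lineage, by 3.43 ± 0.22, and the bHLH factor Nhlh1 by 3.35 ± 0.21. Nfia, a nuclear factor I protein, fell by 2.02 ± 0.13 and stayed well above the lower quartile, at 9.18 to 10.33 in RAS arrays. The Zic genes, zinc finger factors of the whole lineage, moved less: Zic1 fell by 1.37 but its groups overlapped, with RAS arrays at 10.98 to 13.35, and Zic2 did not pass (-1.06). With lines as replicates, Atoh1 (adjusted p = 0.0249), Insm1, Neurod1, Barhl1, Nhlh1 and Nfia still passed.

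**Figure D1:**
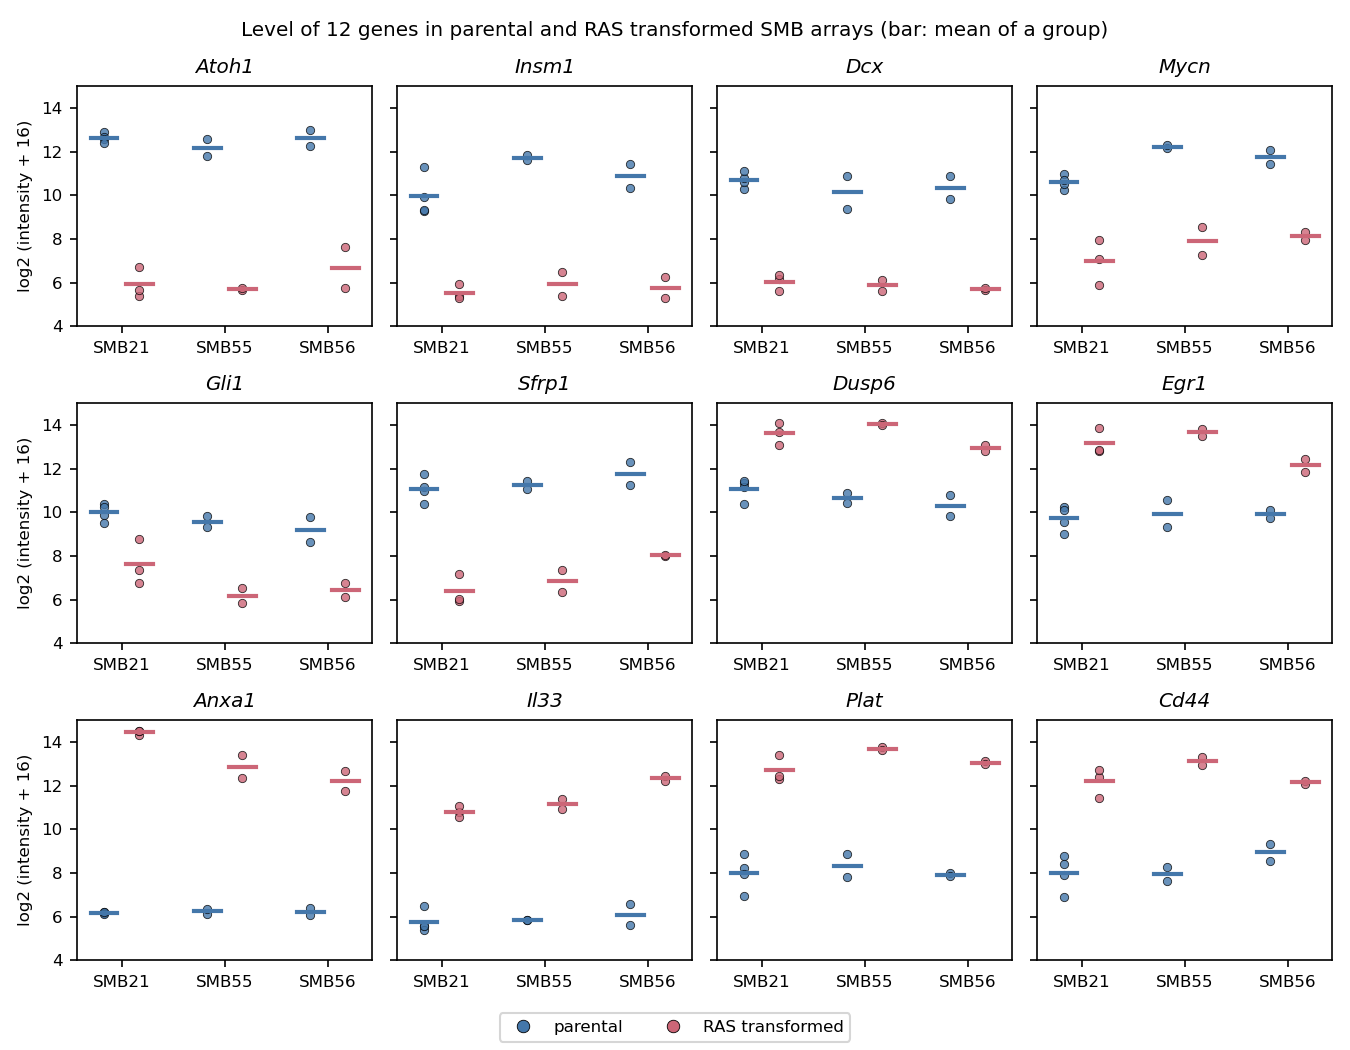
Level of 12 genes (vertical axis, log2 of intensity + 16) in each parental array (blue) and RAS transformed array (red), by line (horizontal axis); bars are group means. In each line the RAS arrays of Atoh1, Insm1, Dcx, Mycn, Gli1 and Sfrp1 lie below and those of Dusp6, Egr1, Anxa1, Il33, Plat and Cd44 above all parental arrays of that line.

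Hedgehog targets moved in both directions. Gli1, a target and effector of the pathway, ran from 8.62 through 9.80 to 10.38 in parental arrays and from 5.84 through 6.74 to 8.79 in RAS arrays, and the groups touched only across lines, through 1 SMB21 RAS array. Its fall was 2.75 ± 0.31 (adjusted p = 3.90e-05). Mycn, a MYC family factor induced by Hedgehog in precursors, ran from 10.23 through 11.19 to 12.30 and from 5.89 through 7.96 to 8.56, a fall of 3.81 ± 0.29 (14.0-fold, adjusted p = 1.92e-06), and by 1.90 where the median of its probe sets is taken. Sfrp1, a secreted Wnt antagonist and Hedgehog target, fell by 4.34 ± 0.28. These 3 genes passed with lines as replicates. The receptor and target Ptch1 overlapped between groups, at 10.84 to 12.37 and 9.88 to 12.06. Its fall of 0.89 (adjusted p = 0.0239) was not shared by the lines, and the call was lost without SMB21 RAS replicate 1 (adjusted p = 0.0557), SMB21 RAS replicate 2 (0.0527) or SMB55 RAS replicate 2 (0.0520). The cyclin Ccnd1 instead rose by 1.11 ± 0.12, from 12.36 to 13.18 in parental to 13.69 to 14.42 in RAS arrays, and Rab34, a GTPase of ciliary signalling, by 0.82. The antagonist Hhip (0.15, adjusted p = 0.838) and the cyclin Ccnd2 (0.45, adjusted p = 0.310) did not pass, and the sign of Hhip changed with the arrays used. Of the 9 targets measured, 4 fell and 2 rose, against 18.2% and 14.6% of all genes. The list's median (0.15) and mean (-0.99) differ in sign, and the median was -0.05 without the 2 parental arrays that stood apart.

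Several transducers upstream of Gli1 were lower too. Of 10 measured components, 5 fell and 1 rose, against 18.2% and 14.6% of all genes. With lines as replicates none of the 10 passed in limma after adjustment, while 6 were lower and none higher at an unadjusted p under 0.05. Gli2, the main activating Gli factor, ran from 10.65 to 12.32 in parental and from 7.85 to 11.03 in RAS arrays, and fell by 2.45 ± 0.29, more in SMB56 (-3.75) than in SMB21 (-1.52; interaction adjusted p = 0.0106). Smo, the activator, fell by 1.03 ± 0.10, evenly over the lines (-0.89, -0.99 and -1.33). Sufu, which restrains Gli proteins, fell by 0.82 ± 0.14, and Evc, a ciliary protein that helps Smo, by 0.91 ± 0.16. The coreceptor Boc fell by 1.35 (adjusted p = 0.0181), but its groups overlapped (10.33 to 10.94 and 7.85 to 11.37). That call was lost without the 2 parental arrays that stood apart (-1.13, adjusted p = 0.0734), without the SMB55 line (-0.98, 0.149), without the SMB56 line (-1.19, 0.0938) and without parental replicate 1 of every line (-1.27, 0.0869). The related coreceptor Cdon rose by 0.64, a call lost without the SMB21 line (0.19, adjusted p = 0.505). Gli3 was dim in every array of both groups, 5.25 to 5.58 and 5.26 to 5.57, so no change is given for it. Of 14 genes of the primary cilium, through which Hedgehog signals, 6 fell and 1 rose, with Ift122, an intraflagellar transport protein, the shared fall (-0.67 ± 0.11); that call was lost without the SMB21 line (adjusted p = 0.0720). Without the 2 parental arrays that stood apart 3 cilium genes fell, without the SMB55 line 2, and with a replicate block 1.

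The feedback inhibitors that ERK induces rose nearly as a group. Of 15 measured, 12 rose and none fell, 10 of them in all lines (list median 1.34). Dusp6, the cytoplasmic phosphatase that dephosphorylates ERK, ran from 9.81 through 10.85 to 11.41 in parental arrays and from 12.81 through 13.66 to 14.10 in RAS arrays. The groups lay more than 1 log2 unit apart, and the rise of 2.79 ± 0.22 (6.92-fold, adjusted p = 2.74e-06) also passed with lines as replicates (adjusted p = 0.0492). Dusp2, a nuclear ERK phosphatase, rose by 3.80 from a parental range of 6.36 to 7.02 to 7.62 to 12.11. Spry4, Spry2 and Spry1, which block RAS activation below receptors, rose by 1.80, 1.34 and 1.84, and Spred1, which brings neurofibromin to RAS, by 0.93 ± 0.11. Errfi1, an inhibitor of EGF receptor kinases, rose by 2.51 ± 0.18, most in SMB55 (3.35; interaction adjusted p = 0.0226). The kinases and adaptors of the cascade moved less. Of 19 core genes, 7 rose and 1 fell (median 0.03). The risers included Rras, a RAS-related GTPase (1.69), the RAS GTPase activators Rasa2 (1.45) and Nf1 (0.69), the adaptor Shc1 (0.94) and the MEK gene Map2k1 (0.99), while the GTPase Rras2 fell by 0.92, but by 0.06 (adjusted p = 0.876) where the probe set is chosen on the 15 arrays compared.

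Of 23 transcription factor genes known to follow ERK, 15 rose and 3 fell, with 12 rises and 1 fall shared (list median 1.69). Egr1, a zinc finger early gene, ran from 8.99 through 9.92 to 10.57 in parental and from 11.87 through 12.86 to 13.85 in RAS arrays, a rise of 3.18 ± 0.30 (adjusted p = 8.92e-06). The groups were separated in every line, but Egr1 did not pass with lines as replicates (adjusted p = 0.0641). Phlda1, a pleckstrin-homology protein counted with these genes, rose by 2.98 ± 0.27, the ETS factor Etv4 by 2.46 ± 0.33, and the ETS-domain factor Elk3 by 2.45 ± 0.22. Of the AP-1 subunits, Junb rose by 2.64, Fosl1 by 2.13, Fos by 2.02 and Jun by 1.32, all shared, and Maff, a small Maf partner, by 2.94. Fosl1 was dim in all parental arrays (5.40 to 5.97) and reached 6.85 to 10.13 in RAS arrays. Ier5, an early response gene, went the other way, from 12.26 to 13.44 in parental to 9.49 to 11.91 in RAS arrays (-2.07 ± 0.16). Etv5 (0.67, adjusted p = 0.0988) and Myc (0.24, adjusted p = 0.523) did not pass. Etv5 passed without SMB21 RAS replicate 3 (0.87, adjusted p = 0.0279), and Myc changed sign without SMB56 parental replicate 1 (-0.05).

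Because AP-1 subunits and the Gli and bHLH factors moved, promoters were searched for short motifs that such factors are known to bind. RefSeq windows (GRCm38.p6) from 250 bases before to 50 after a gene's start were available for 661 of the shared higher and 773 of the shared lower genes. The AP-1 motif TGACTCA, searched on both strands, stood in 6.69% of the 897 promoters of shared higher genes, 2.37% of the 970 promoters of shared lower genes, 4.73% of the promoters of all genes tested and 5.20% of all 32851 promoters. The E-box CAGCTG, a palindrome bound by bHLH factors such as Atoh1, stood in 19.7% of higher, 15.3% of lower and 15.97% of tested promoters. The ETS motif CCGGAAG was found in 10.7%, 14.2% and 14.0%, and the GLI core GGGTGGT in 4.79%, 5.15% and 4.81%. These shares describe letters in a window and were not tested, and a match is not a bound site. Among the named genes with a shared rise, 9 of 85 promoters held the AP-1 motif, and 5 of the 9 are shown as examples, chosen after their values were seen; capitals mark the motif, which reads TGAGTCA where it lies on the opposite strand. The sixth window shows the E-box of a neuronal gene that fell, and the seventh the GLI core of Gli2. Named genes with a shared rise held these motifs too. The E-box stood in 12 of their 85 promoters and in 12 of 58 promoters of named shared falls. The GLI core stood in 4 and 2. The ETS motif stood in 3 (3.53%) and 4 (6.90%), next to 14.0% of the promoters of all genes tested.
Anxa2, chr9:69453563-69453619, plus strand: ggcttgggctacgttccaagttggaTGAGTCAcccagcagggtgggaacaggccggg
Plaur, chr7:24462389-24462445, plus strand: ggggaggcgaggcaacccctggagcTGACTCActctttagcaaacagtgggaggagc
Lif, chr11:4257318-4257371, plus strand: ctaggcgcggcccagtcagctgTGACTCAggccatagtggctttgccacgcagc
Gja1, chr10:56377256-56377299, plus strand: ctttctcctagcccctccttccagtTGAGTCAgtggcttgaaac
Igfbp2, chr1:72825323-72825379, plus strand: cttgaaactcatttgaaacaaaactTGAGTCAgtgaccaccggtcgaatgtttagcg
Elavl3, chr9:22052036-22052091, minus strand: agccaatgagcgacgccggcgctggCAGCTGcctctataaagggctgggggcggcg
Gli2, chr1:119053793-119053849, minus strand: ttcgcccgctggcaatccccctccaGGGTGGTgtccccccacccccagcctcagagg
The motif began 95 bases before the start of Anxa2, 69 before Plaur, 228 before Lif, 19 before Gja1, 39 before Igfbp2, 43 before Elavl3 and 205 before Gli2. None of the 58 promoters of named genes with a shared fall held the AP-1 motif, next to 4.73% of the promoters of all genes tested. The named genes were mostly chosen by their changes in these data, and the difference was not tested.

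Ligands and receptors that feed the cascade were higher in part. Of 18 growth factor ligands, 6 rose and 1 fell. Hbegf, a ligand of EGF receptors, ran from 6.52 through 7.26 to 9.86 in parental and from 9.69 through 11.90 to 12.96 in RAS arrays. The groups met only across lines, and the rise was 3.81 ± 0.52 (14.0-fold, adjusted p = 0.000153). Btc, a second EGF family ligand, rose by 2.64 and Bdnf, a neurotrophin, by 1.03, while the intracellular FGF homologue Fgf13 fell by 1.83. Of 19 receptors, 8 rose and 2 fell (median 0.64, and 0.34 without the 2 parental arrays that stood apart), and without the SMB21 line 4 rose. Axl, the receptor kinase for Gas6, ran from 5.11 through 5.85 to 9.71 and from 8.68 through 10.94 to 12.30 and rose by 3.78 ± 0.61. It rose in each line by 3.36 to 4.15 and passed with lines as replicates (adjusted p = 0.0322), and was 1.90 by the median of its probe sets. Epha2, an ephrin receptor, rose by 2.04, most in SMB55 (3.51; interaction adjusted p = 0.0189). Erbb2 rose by 1.18 and Fgfr1 by 1.06.

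The largest rise of all shared genes was Anxa1, a calcium-dependent phospholipid-binding protein: 6.10 through 6.18 to 6.38 in parental and 11.75 through 13.38 to 14.51 in RAS arrays. All parental arrays were near the dim end and all RAS arrays far above the median gene. The rise of 7.20 ± 0.32 (147-fold, adjusted p = 3.43e-08) was 8.26 in SMB21, 6.61 in SMB55 and 5.97 in SMB56 (interaction adjusted p = 0.0200). Of 25 annexins, S100 proteins and galectins measured, 17 rose and none fell, 11 in all lines (median 1.31), and without the SMB21 line 10 rose. Anxa2, which gathers plasminogen activators at the cell surface, ran from 6.99 to 11.47 in parental and 11.97 to 14.11 in RAS arrays and rose by 4.17, but by 0.61 where the median of its 3 probe sets is taken. S100a6 rose by 4.36 and the galectin Lgals1, abundant in both groups, by 0.97 (12.99 to 14.04 against 13.77 to 14.91).

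The largest rises also held secreted and membrane proteins outside the lists. Lcn2, the iron carrier lipocalin 2, ran from 5.36 through 5.67 to 6.93 in parental and from 8.31 through 13.64 to 14.49 in RAS arrays, a rise of 6.19 ± 0.71 (73.2-fold, adjusted p = 4.22e-05). Its parental arrays were near the dim end, and its RAS arrays spread over more than 6 log2 units. Serpinf1, the secreted pigment epithelium-derived factor, rose by 6.18 ± 0.47, and the tetraspanin-like Tm4sf1 by 5.67 ± 0.48, or 3.41 by the median of its probe sets. The TGF-beta binding membrane protein Vasn rose by 4.77 ± 0.40 and, like Tm4sf1, passed with lines as replicates. Among the falls, Lrrn1, a leucine-rich repeat neuronal protein, ran from 11.76 through 12.43 to 12.79 in parental and from 5.78 through 7.42 to 9.23 in RAS arrays (-5.03 ± 0.38). Hpca, the neuronal calcium sensor hippocalcin, fell by 5.00 ± 0.35, the LIM homeobox factor Lhx1 by 4.49 ± 0.30 and the corepressor Cbfa2t3 by 4.19 ± 0.28. These 3 genes passed with lines as replicates. Mycl, a relative of Mycn, fell by 4.31 ± 0.27, but by 1.23 by the median of its probe sets.

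**Figure D2:**
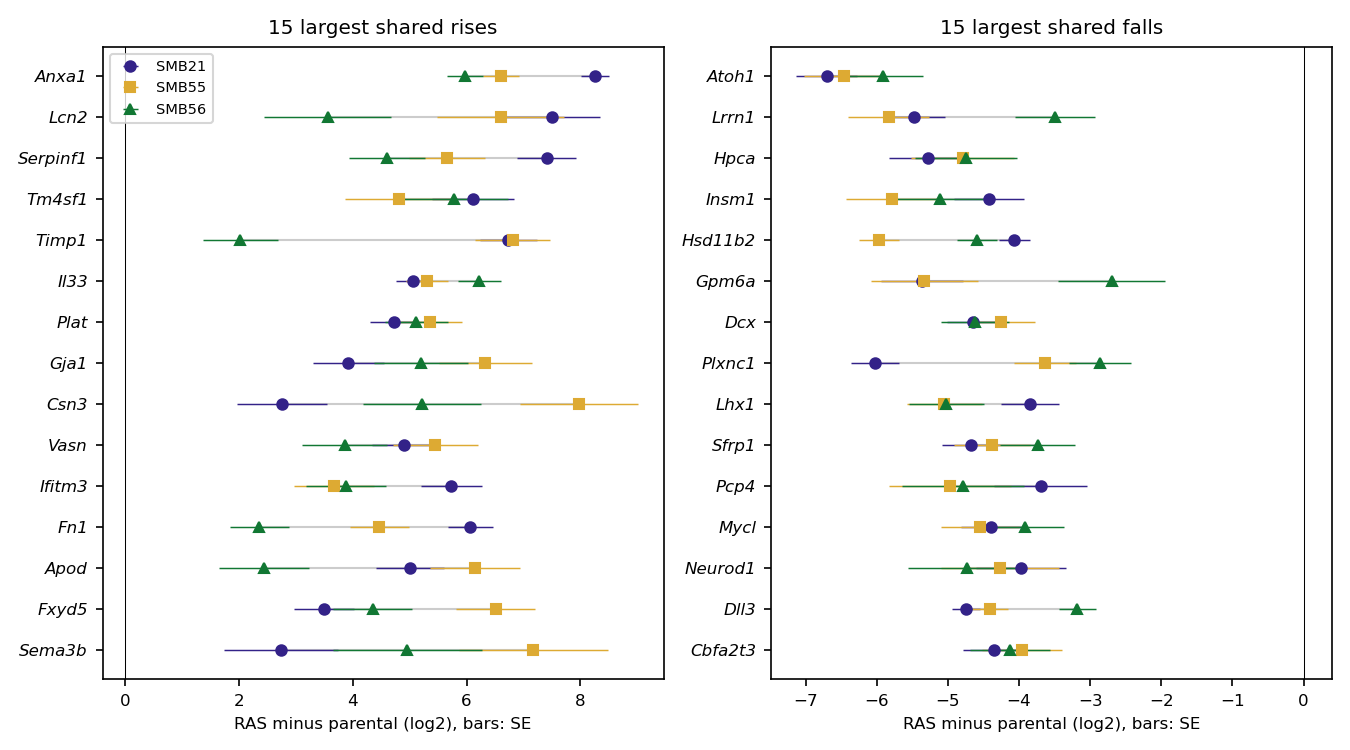
RAS minus parental difference (horizontal axis, log2; bars are standard errors) of the 15 largest shared rises and the 15 largest shared falls in SMB21 (circles), SMB55 (squares) and SMB56 (triangles). Il33, Plat, Atoh1 and Dcx lie close together over the lines, whereas Timp1 (6.73, 6.81 and 2.02) and Csn3 (2.75, 7.98 and 5.21) spread widely.

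Genes of the plasminogen system and other matrix proteases rose with their inhibitors. Of 25 measured, 17 rose and none fell, 12 of them in all lines (median 0.96). Plat, the tissue plasminogen activator, ran from 6.93 through 7.98 to 8.88 in parental and from 12.31 through 13.10 to 13.76 in RAS arrays. The gap between the groups exceeded 3 log2 units, and the rise of 5.00 ± 0.28 (32.0-fold, adjusted p = 1.86e-07) was 4.72, 5.36 and 5.12 over the lines. Plaur, the urokinase receptor, rose by 2.61 ± 0.19, Ctsl, a lysosomal cysteine protease, by 2.01 ± 0.12, and Timp1, an inhibitor of matrix metalloproteinases, by 5.49 ± 0.67. Plat and Ctsl passed with lines as replicates. The metalloproteinase Mmp9 rose by 0.49 at low levels, 6.36 to 7.17 in RAS arrays. Without the SMB21 line, 9 of the 25 rose.

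Adhesion and matrix genes rose more often than they fell, 21 against 1 of 31 measured, with 12 rises shared (median 1.18). Cd44, the hyaluronan receptor, ran from 6.92 through 8.35 to 9.35 in parental and from 11.44 through 12.40 to 13.32 in RAS arrays, a rise of 4.18 ± 0.34 (18.1-fold, adjusted p = 3.38e-06). Its groups lay more than 2 log2 units apart. Tnc, the matrix glycoprotein tenascin C, rose by 4.07 ± 0.31 and passed with lines as replicates (adjusted p = 0.0358). Fn1, fibronectin, rose by 4.64 ± 0.50 overall but by 6.07, 4.47 and 2.35 in SMB21, SMB55 and SMB56 (interaction adjusted p = 0.0275). The integrin subunit Itga6 rose by 3.55 and thrombospondin Thbs1 by 3.02. Among factors and cadherins of mesenchymal transition, 5 of 21 rose and 2 fell, against 14.6% and 18.2% of all genes. These counts were 2 and 1 without the SMB21 line. Vim, an intermediate filament protein, went from 10.84 to 13.25 in parental to 13.42 to 14.66 in RAS arrays (1.88 ± 0.24). Twist1 rose by 2.13 and the neuronal cadherin Cdh8 fell by 0.95. Snai1 (0.49), Cdh1 (0.13) and Cdh2 (0.25) did not pass.

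TGF-beta and BMP ligands and the genes that report their activity were higher. Of 22 measured, 14 rose and none fell, 12 in all lines (median 1.34). Ltbp1, which stores latent TGF-beta in the matrix, ran from 5.78 through 6.35 to 7.46 in parental and from 9.15 through 11.06 to 11.99 in RAS arrays. The groups did not overlap, and the rise was 4.16 ± 0.22 (17.9-fold, adjusted p = 1.42e-07). Bmp2 rose by 4.25 ± 0.42, Inhba, the activin A subunit, by 3.34 ± 0.35, less in SMB56 (1.47) than in SMB21 (4.02) and SMB55 (4.06; interaction adjusted p = 0.0149), and Skil, a SMAD corepressor, by 1.50 ± 0.16. Id3, an inhibitor of bHLH factors and a BMP response gene, ran from 5.82 through 6.01 to 10.39 in parental and from 10.99 through 11.49 to 12.95 in RAS arrays and rose by 4.52 ± 0.50. Its highest parental values, 10.39 and 9.21, were those of the 2 arrays that stood apart, and without them the rise was 5.32.

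Cytokine genes rose in 15 of 29 cases and fell in 1, with 8 rises shared (median 0.71). Il33, a nuclear alarmin of the interleukin 1 family, ran from 5.38 through 5.75 to 6.56 in parental and from 10.56 through 11.05 to 12.45 in RAS arrays, a rise of 5.44 ± 0.22 (43.3-fold, adjusted p = 2.67e-08). Lif, an interleukin 6 family cytokine, rose by 3.74 ± 0.29 and Il1rap, the coreceptor through which interleukin 33 signals, by 2.49 ± 0.22. The exception was the chemokine receptor Cxcr4, which fell by 2.81 ± 0.33: its highest RAS array (9.23) lay below its lowest parental array (10.24). Without the SMB21 line 8 of the 29 rose. Of 18 interferon response genes 6 rose, and of 15 antigen presentation genes 5 rose; without the SMB21 line 2 of each rose. Bst2, an antiviral membrane protein, rose by 3.35 in SMB21, 1.05 in SMB55 and 2.37 in SMB56 (interaction adjusted p = 0.00532).

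Genes of neuronal differentiation fell: 14 of 29 were lower and 3 higher, with 10 falls and 1 rise shared (median -0.76). Elavl3, a neuronal RNA-binding protein, had the smallest adjusted p of the named genes (2.89e-09): it ran from 9.39 through 9.77 to 10.03 in parental and from 6.03 through 6.28 to 6.64 in RAS arrays, a fall of 3.48 ± 0.11. Dcx, a microtubule-associated protein of migrating neurons, ran from 9.39 through 10.70 to 11.11 and from 5.64 through 5.77 to 6.34 and fell by 4.53 ± 0.24. It was dim in most RAS arrays, and fell by 2.64 by the median of its probe sets. Rbfox3, a splicing factor of mature neurons, fell by 3.05 and the stathmin Stmn3 by 4.13. The list was not uniform: the neural adhesion molecule Ncam1 rose by 1.16. Of 15 Notch pathway genes, 4 rose and 4 fell (list median -0.09), against 14.6% and 18.2% of all genes, and 1 rose without the SMB56 line. The list thus went both ways, with 4 falls and 1 rise shared. The ligands Dll3 (-4.23) and Dll1 (-1.66), the modifier Mfng (-1.68) and the neurogenic bHLH factor Hes6 (-1.71) were the shared falls.

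Axon guidance genes went both ways, with 7 of 28 higher and 9 lower, against 14.6% and 18.2% of all genes. With a replicate block or without the SMB56 line 4 fell, and without the SMB21 line 3 fell. Plxnc1, a semaphorin receptor, ran from 10.33 through 11.11 to 12.69 in parental and from 5.99 through 6.78 to 8.43 in RAS arrays. The groups did not overlap, and the fall of 4.53 ± 0.45 was 6.02 in SMB21, 3.63 in SMB55 and 2.86 in SMB56 (interaction adjusted p = 0.0189). The ephrin receptor Epha4 fell by 1.41 ± 0.23, whereas the ephrin ligand Efnb2 rose by 2.30 ± 0.26, nearly equally in each line (2.34, 2.21 and 2.32), and the netrin receptor Unc5b by 2.08 ± 0.37. Efnb2 was the 1 of these 28 genes that passed with lines as replicates.

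Of 21 genes of neural stem and progenitor cells 5 rose and 4 fell, against 14.6% and 18.2% of all genes (median -0.05), and without the SMB21 line 1 fell. Hmga2, a chromatin protein of fetal stem cells, ran from 6.16 through 6.59 to 7.61 in parental and from 9.64 through 11.31 to 13.51 in RAS arrays and rose by 4.46 ± 0.29 (22.0-fold). Hes1, a Notch effector, rose by 1.63 and the intermediate filament gene Nes by 1.71. Bmi1, a Polycomb protein, fell by 0.81 ± 0.12, and Sox2 did not pass (0.85). Among Wnt inhibitors and feedback genes, 7 of 17 rose and 4 fell. The count of rises was 4 without the 2 parental arrays that stood apart and in the fit of 18 cell arrays, and 3 with a replicate block or without the SMB56 line. Nkd2 rose by 3.54 ± 0.28 while its relative Nkd1 fell by 1.73 ± 0.29, both nearly equal in each line and both past the threshold with lines as replicates. Sfrp2 fell by 3.82 ± 0.29.

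Proliferation genes were lower by small amounts. Of 31 measured, 23 fell and none rose in limma (median -0.60; 1 was higher at an unadjusted p under 0.05), and 7 falls were shared. Ccna2, the S phase cyclin, ran from 11.79 through 12.32 to 12.74 in parental and from 10.38 through 11.18 to 11.74 in RAS arrays (-1.20 ± 0.20, adjusted p = 0.000751). The RAS arrays remained far above the median gene. The replication helicase subunits Mcm6 (-0.86) and Mcm7 (-0.58) and the polymerase clamp Pcna (-0.65) fell too, and Mki67 overlapped between groups (12.43 to 13.13 and 11.23 to 12.60). With lines as replicates none of the 31 passed in limma after adjustment, while 22 were lower and 1 higher at an unadjusted p under 0.05. Without the SMB55 line 9 of the 31 fell, without the SMB21 line 14, and without parental replicate 1 of every line 16. Cell cycle inhibitors went both ways. Cdkn1a, the p21 inhibitor, rose by 2.00 ± 0.33 and Cdkn2a, whose locus encodes p16 and p19Arf, by 1.10 ± 0.15, whereas Cdkn1b fell by 0.67. The p53 target genes Btg2 (-1.74), Zmat3 (-0.84) and Sesn1 (-0.75) fell, and Gadd45a rose by 2.27, mostly in SMB21 (4.05, against 0.76 in SMB55 and 0.73 in SMB56; interaction adjusted p = 0.0106).

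Growth factor binding and metabolic genes were changed in part. Of 10 genes of the insulin-like growth factor axis, 7 rose and 1 fell (median 1.41), and without the SMB21 line 4 rose. Igfbp3, which carries IGF in the extracellular fluid, ran from 8.14 through 8.60 to 9.69 in parental and from 10.93 through 13.14 to 14.46 in RAS arrays, a rise of 4.11 ± 0.32 (17.3-fold). Igfbp4 (2.85) and Igfbp2 (2.69) rose, and the receptor substrate Irs1 fell by 1.47. Of 22 glycolysis and hypoxia genes, 8 rose and none fell (median 0.78), with the phosphofructokinase Pfkp (3.87) and the hexokinase Hk1 (1.68) shared. Without parental replicate 1 of every line 5 rose (median 0.18), without the SMB21 line 3, and without the 2 parental arrays that stood apart 11 (median 1.04). Of 18 amino acid stress genes, 6 fell and 2 rose, and the serine synthesis enzymes Psat1 (-1.27) and Phgdh (-0.68) and the mitochondrial serine hydroxymethyltransferase Shmt2 (-1.01) were among the shared falls. Of 14 cholesterol synthesis genes, 3 rose, against 14.6% of all genes.

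**Figure D3:**
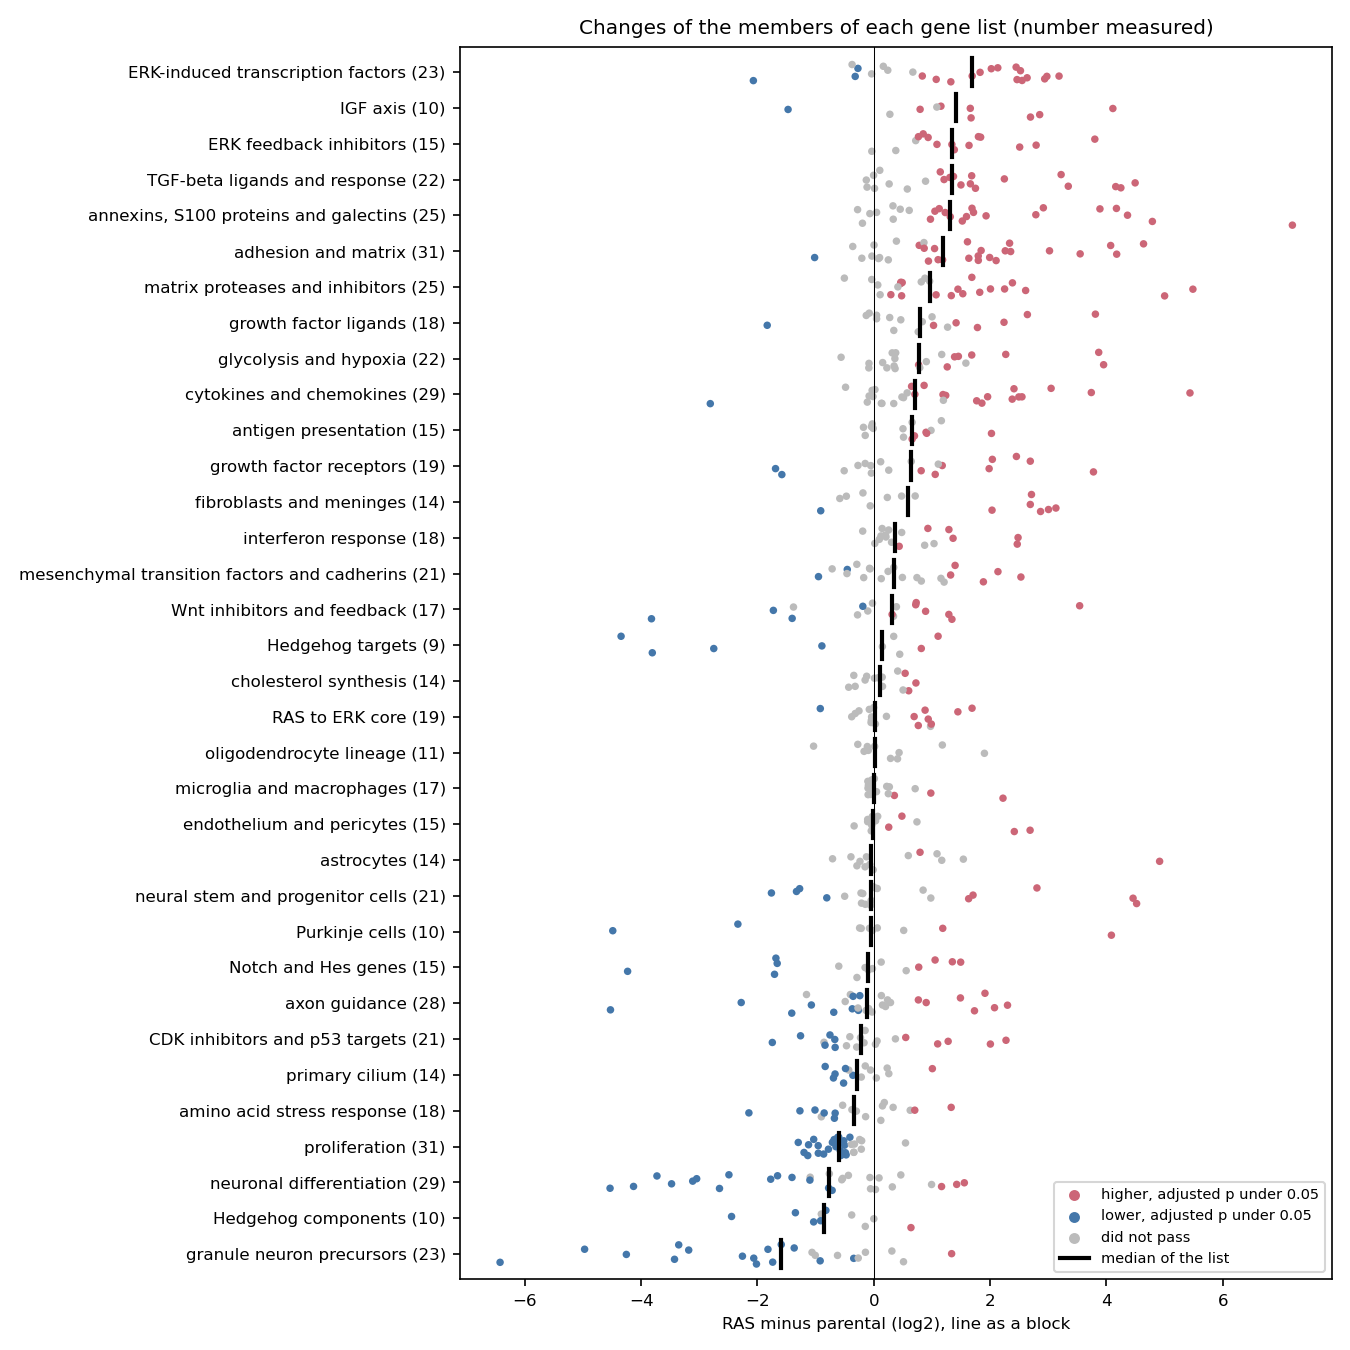
RAS minus parental difference (horizontal axis, log2) of each measured member of 34 gene lists (rows, number measured in brackets, ordered by median); red and blue points passed an adjusted p under 0.05, grey points did not, and black bars are list medians. The lists of ERK-induced factors, ERK feedback inhibitors, the IGF axis, TGF-beta, annexins and adhesion have medians above 1, and granule neuron precursors the lowest median, -1.59.

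Markers of other cell types were read beside these groups. In bulk RNA, fewer cells of a type and less RNA per cell cannot be told apart. Of 17 microglia and macrophage genes 3 rose (17.6%) and none fell, near the 14.6% of all genes that rose. The summed intensity of the list was 652 to 808 in parental and 890 to 1745 in RAS arrays. The defining markers Ptprc, Aif1, Itgam and C1qa were dim in every array of both groups, and the lysosomal protein Cd68 rose by 2.22. Of 15 endothelial and pericyte genes 4 rose and none fell (2 rose without the SMB55 line), with a summed intensity of 733 to 891 against 1307 to 3088; Pecam1 and Tek were dim in every array, Flt1 rose by 2.42 and the pericyte gene Rgs5 by 2.69 (1.27 by the median of its probe sets). Of 14 fibroblast and meningeal genes 6 rose and 1 fell (2 rose without the SMB21 line), and the summed intensity was 2003 to 4758 in parental and 3940 to 25218 in RAS arrays. The 3 rises shared by all lines were Foxc1 (2.87), Col6a1 (3.13) and Col6a2 (2.71), and the Col6a1 call was lost without the SMB21 line. The list as a whole moved most in SMB21 (median 1.74, against -0.08 in SMB55 and 0.01 in SMB56): the collagen Col3a1 reached 13.16 and Dcn 11.92 at their highest, while Col1a2 stayed at 5.86 to 6.45 in RAS arrays. The part of these genes in the adhesion, TGF-beta and cytokine changes was not tested. Of 14 astrocyte genes 2 rose, against 14.6% of all genes: the gap junction gene Gja1 (4.91) and the bicarbonate transporter Slc4a4 (0.79), with the list at 8520 to 27462 in parental and 9367 to 42581 in RAS arrays, and Gfap and Aqp4 did not pass. Slc4a4 did not pass without the 2 parental arrays that stood apart (0.68, adjusted p = 0.103). None of 11 oligodendrocyte genes passed in limma (1 was higher and 1 lower at an unadjusted p under 0.05), with sums of 1534 to 35212 and 1275 to 36586. Without the 2 parental arrays that stood apart, 2 of these 11 rose and the list median was 0.65 instead of 0.01. Of 10 Purkinje cell genes 2 fell and 2 rose. The falls were Lhx1 (-4.49) and Pvalb (-2.34), and the rises Gad1, which makes GABA (4.08), and Rora (1.19). Pcp2 was dim in every array.

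Each line was also taken alone, SMB21 with 4 parental and 3 RAS arrays and the other lines with 2 of each. SMB21 had 2409 changed genes (19.4%), SMB55 2666 (21.5%) and SMB56 1492 of the 12394, and 537 (4.33%) passed in the same direction in each. Across the 12394 genes, which are not independent replicates and share the array type, the changes of SMB21 and SMB55 had r = 0.67 (rho 0.58), those of SMB55 and SMB56 r = 0.68 (rho 0.57), and those of SMB21 and SMB56 r = 0.56 (rho 0.44). Of the shared changes, 904 were largest in SMB55, 496 in SMB21 and 384 in SMB56. A test of the difference between lines called 428 genes (3.45%), among them 71 shared changes, and 50 genes passed in opposite directions in a pair of lines. By chromosome, the median change ran from -0.15 for 437 genes of chromosome 14, of which 14 were shared rises and 68 shared falls, to 0.01 for chromosomes 13 and 15. Chromosome 13 held 47 shared rises and 11 shared falls among 459 genes.

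**Figure D4:**
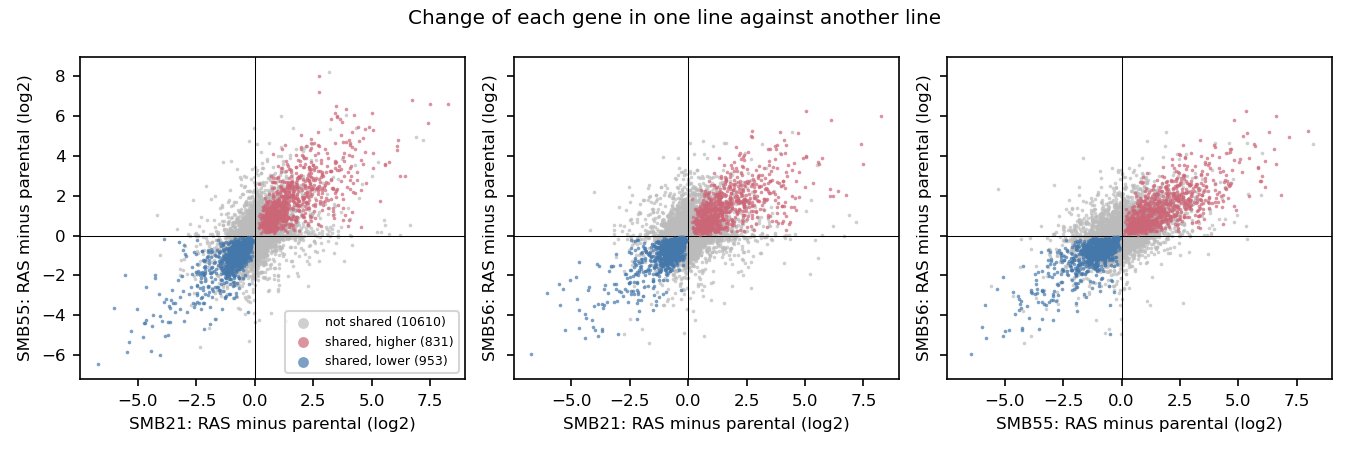
RAS minus parental difference (log2) of each of 12394 genes in one line against another, for the 3 pairs of lines; red and blue points are the 831 shared rises and 953 shared falls, grey points the rest. Coloured points lie only where both lines changed in one direction, and the SMB21 against SMB56 panel has the lowest correlation (r = 0.56).

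The growth factor arrays share the parental arrays with this comparison, so the values are only set side by side, for genes described above that were chosen after their values were seen. In a limma fit of all 18 SMB arrays, Sfrp1 was 4.60 lower with growth factors (adjusted p = 9.36e-05) and Barhl1 3.30 lower, next to the RAS values of -4.34 and -3.43. Atoh1 stood at -4.59 with growth factors and Anxa1 at 3.30. Dusp6 was at 1.93 and Cd44 at 3.02. Growth factor values that did not pass were Nkd2 -0.11, Ctsl 0.18, Bmp2 0.26, Timp1 1.31 and Ltbp1 1.17. The difference between the RAS and growth factor responses was not tested.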

How the data were processed

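RNA of 15 mouse SMB culture arrays was compared on Affymetrix arrays, 7 of RAS transformed and 8 of parental cells. The authors deposited 1 intensity per probe set and array, per the file headers, on a scale that the values show to be linear. The summarisation and normalisation are not given in the sources used here. Of 22690 probe sets, 20393 carried 1 gene symbol, 691 several and 1606 none, and for 4958 genes with several probe sets the one with the highest mean over 24 arrays was kept, which left 12394 genes. From the deposited intensity, log2(intensity + 16) was computed.

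The RAS effect was estimated by limma (version 3.58.1, R 4.3.3) with the line as a block. Tests were moderated by empirical Bayes and two-sided, p-values were adjusted by Benjamini-Hochberg across the 12394 genes, and the code was tested on simulated data. SE and adjusted p come from this fit unless another is named. A mean for each line and treatment gave the changes per line and the interaction test between lines. A change is called shared where the gene passed and the arrays of both groups did not overlap within any of the 3 lines. The number of arrays limits the precision. Genes were named by a rule: the 15 largest shared rises and falls whose higher group mean reached the median of all genes, the 5 rises and 5 falls with the largest smallest change over the lines, up to 4 shared members of each list by p, and fixed pathway genes. A further 38 list members were named after their values were seen. The members and lists were chosen with earlier results of these data known. Alternatives covered the pseudocount, filter, probe set choice, scaling, prior, blocks, lines as replicates and left-out arrays or lines, 3 of them chosen after seeing the data. Promoter sequences came from RefSeq (GRCm38.p6).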

Additional observations from a re-analysis of the deposited data

Results flagged for a closer look

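Among 168 genes named in the text, the 4 parental arrays of SMB21 held 1 array far from the other 3 in 15 genes, by Dixon's criterion, which flags about 1 in 20 groups by chance. In 13 of the 15 that array was replicate 1. Replicate 1 was above the others for Neurod1 (12.32, against 9.58 to 9.97), Sufu (10.39), Hsd11b2 (10.47), Pvalb (9.68) and Spry1 (9.21). It was below the others for Twist1 (5.97, against 8.70 to 8.95), Dll1 (7.19, against 9.26 to 9.53), Phlda1 (8.90), Epha4 (7.59), Unc5b (7.43), Nras (11.69), Maff (6.29) and Csn3 (5.27). For Ier5 the far array was replicate 4 (13.21), and for Ift122 replicate 2 (8.39), both below the others.

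The RAS response differed between lines in 18 named genes by the limma interaction test over all genes. Col3a1 rose by 6.22 in SMB21 but by 0.04 in SMB55 and 0.46 in SMB56 (adjusted p = 0.00112). Bst2 had an interaction adjusted p of 0.00532, Gli2 and Gadd45a 0.0106 each, Itga6 0.0118 (4.02, 4.80 and 1.49 in SMB21, SMB55 and SMB56) and Dusp2 0.0151 (4.62, 4.90 and 1.29). Inhba had 0.0149, Epha2 0.0189, Plxnc1 0.0189, Timp1 0.0199 (6.73, 6.81 and 2.02) and Anxa1 0.0200. Errfi1 had 0.0226, Plaur 0.0231 (2.62, 3.42 and 1.79) and Fn1 0.0275. The value was 0.0355 for Hsd11b2 (-4.07, -5.97 and -4.59) and 0.0355 for Rgs5 (3.37, 2.40 and 1.81). For Elk3 it was 0.0463 (1.92, 3.52 and 2.27) and for Dll3 0.0485 (-4.75, -4.40 and -3.18). In each of these 18 genes the 3 line values had the same sign.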

How the results depend on the processing

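The count of changed genes stayed within 1.5 times 4074 except for 167 with 1 mean per line and 2551 without the SMB21 line. Leaving out single arrays gave 3526 to 4263 changed genes and 1816 to 2140 shared changes. Stricter rules left 537 shared changes (called in each line alone) or 520 (at least 2-fold in every line). Centring arrays on the median moved the median change of all genes from -0.05 to -0.13 and gave 4531 calls, 34.2% higher, and 1910 shared changes, 35.2% higher against 46.6%. The mid-range mean gave 4590 calls, 35.6% higher, and the share of higher calls in SMB56 alone went from 51.0% to 36.9% on median centring. Without parental replicate 1 of every line 3450 genes changed and 2430 changes were shared. Leaving out arrays makes the rule of no overlap easier to meet, so shared counts without arrays do not compare with the main count.

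The titles number replicates alike in both groups without saying that same-numbered arrays are pairs. Same-numbered deviations from the group means correlated at -0.04, -0.03 and -0.03 in SMB21, -0.15 in SMB55 and -0.02 in SMB56. In SMB55 and SMB56, with 2 arrays a group, the deviations mirror each other, so these values cannot decide whether the arrays were paired. With a replicate block 2847 genes changed, and with the numbers crossed in SMB55 3015. Under the block Ptch1 (adjusted p = 0.0702), Boc (0.0556), Cdon (0.0734), Rras2 (0.0555), Slc4a4 (0.0960), Col3a1 (0.108) and Dcn (0.103) did not pass.

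Of 139 genes named by the rule and measured above the lower quartile, 134 were called and 36 kept their call in all 34 settings, and 1 mean per line alone ended 98 calls. Signs changed for Hhip, which was -0.0022 without the SMB55 line, -0.23 without SMB56, -0.05 without SMB55 and SMB56 parental replicate 2, and -0.14 to 0.55 without single arrays. Myc was -0.045 without parental replicate 1 of every line and -0.049 to 0.41 without single arrays (0.49 without SMB55 and SMB56 parental replicate 2), and Cdh2 was -0.11 without the SMB21 line. Without that line Ptch1 (adjusted p = 0.213), Col6a1 (0.0546), Mcm7 (0.0626), Lss (0.0545), Fos (0.0731), Mki67 (0.160), Cdkn1b (0.0539), Col3a1 (0.591) and Dcn (0.164) did not pass, S100a6 was 2.59 and Gadd45a 0.75. By the median of probe sets Csn3 was 2.64, Sufu -0.49, Evc -0.57, Shc1 0.57, Bdnf 1.67, Fgf13 -1.11, Lif 2.26, Mcm7 -0.87, Pfkp 2.38, Efnb2 1.39, Ptch1 -0.52 and Lss 0.29 (adjusted p = 0.116). Twist1 was 1.30 without parental replicate 1 of every line, and Cdh8 -0.52 with a pseudocount of 64. The causes were not tested. Genes near the lowest intensities have compressed changes.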
